A study of Mus musculus with 21 samples.

Results

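The stromal vascular fraction of mouse inguinal fat was compared between day 3 and day 7 of its first culture, with 3 RNA libraries on each day, or 6 of the 21 libraries of the time course. Between these days transcripts of type I collagen and of the secreted adipokine C1qtnf3 rose, transcripts of the epithelial regulators Esrp1 and Grhl2 fell, and neighbouring matrix metalloproteinase genes on chromosome 9 moved in opposite directions. The calls of Esrp1 and Grhl2 were lost on leaving out some single libraries, and the other 6 epithelial markers were not called. All cells came from female C57BL/6J mice aged 8 to 12 weeks, whose inguinal fat pads had been freed of lymph nodes, digested, filtered and cleared of red cells. Both groups were primary cultures, unpassaged and with no drug, transgene or differentiation agent named in the labels, seeded at 5000 live cells per cm2 in growth medium with 10% bovine serum. The cells were therefore a mixed and unsorted population on both days. The labels do not say whether the 3 libraries of a day came from separate animals or cultures, and a p-value here reflects library-to-library spread alone, which may be technical.

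When fat is digested and its adipocytes are floated away, the remaining stromal vascular fraction holds fibroblast-like progenitors, endothelial and mural cells, leukocytes and, in the inguinal depot of females, epithelium of the mammary gland embedded in the pad. On plastic in serum, adherent fibroblast-like cells spread, divide and lay down collagen, while many other cell types do not persist. Matrix metalloproteinases are secreted proteases that cut collagens and other matrix proteins, and their genes are known to respond to growth factors and cytokines.

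Genes are named only where a previous check of these data had found that the symbols fit their values, in 1 stretch each of chromosomes 4, 6, 9 and 15 of the mouse build GRCm38 and in the mitochondrial genome. Protein-coding genes whose identifier and symbol both matched the reference annotation were taken, which gave 522 of the 30961 gene models of the table. Of these, 289 lay on chromosome 4, 113 on chromosome 6, 33 on chromosome 9, 74 on chromosome 15 and 13 in the mitochondrial genome. Of the 509 nuclear genes, 82.7% exceeded the floor of the table in 1 or more libraries, against 45.1% of 14724 matched protein-coding genes elsewhere, whose symbols are not used here. A level is given in scaled reads, the reads of a gene multiplied by 1 factor for its library, and lower values were set to a floor of 30 scaled reads, or to 16 where no read was found. Gene lengths were not taken into account, so levels compare libraries and not genes.

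Per library, between 2650099 and 3487262 reads were recovered above the floor, spread over 5402 to 5577 gene models. The floor lay at 24.6 to 33.3 reads, so changes of genes below it were not detectable at this depth. Correlations of the levels were 0.951 to 0.961 between libraries of 1 day and 0.937 to 0.944 between libraries of different days.

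Of the 522 genes, 415 exceeded the floor in 3 or more of the 21 libraries and were tested, and 107 were not tested, including 88 that exceeded it in no library. A total of 49 of the 415, or 11.8%, were called at an adjusted p under 0.05 by limma, against 7.11% of all 7768 gene models tested. At day 7, 32 genes, or 7.71%, were higher, against a background of 3.6%. Another 17, or 4.1%, were lower, close to the background of 3.5%. The background includes gene models that passed the filter only through other days. With a filter on 3 of the 6 compared libraries, 53 of 386 named genes and 600 of 5648 gene models were called, a smaller gap. The fall count depended on single libraries. When replicate 1, 2 or 3 of day 3 was left out, 7, 10 and 9 falls were called, and when replicate 1, 2 or 3 of day 7 was left out, 11, 10 and 10. The number of rises stayed between 25 and 31 in these 6 fits. The day 3 and day 7 libraries did not overlap for 140 of the 415 genes, or 33.7%, against 22.2% of all gene models tested. All 49 called genes were among the 140, so a lack of overlap in a called gene gives no support beyond its call. The median log2 difference was -0.015 over the 415 genes and 0.0 over all gene models tested. Counts of called genes in the gene lists below are to be read against these shares, and no list was tested as a set.

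**Figure D1:**
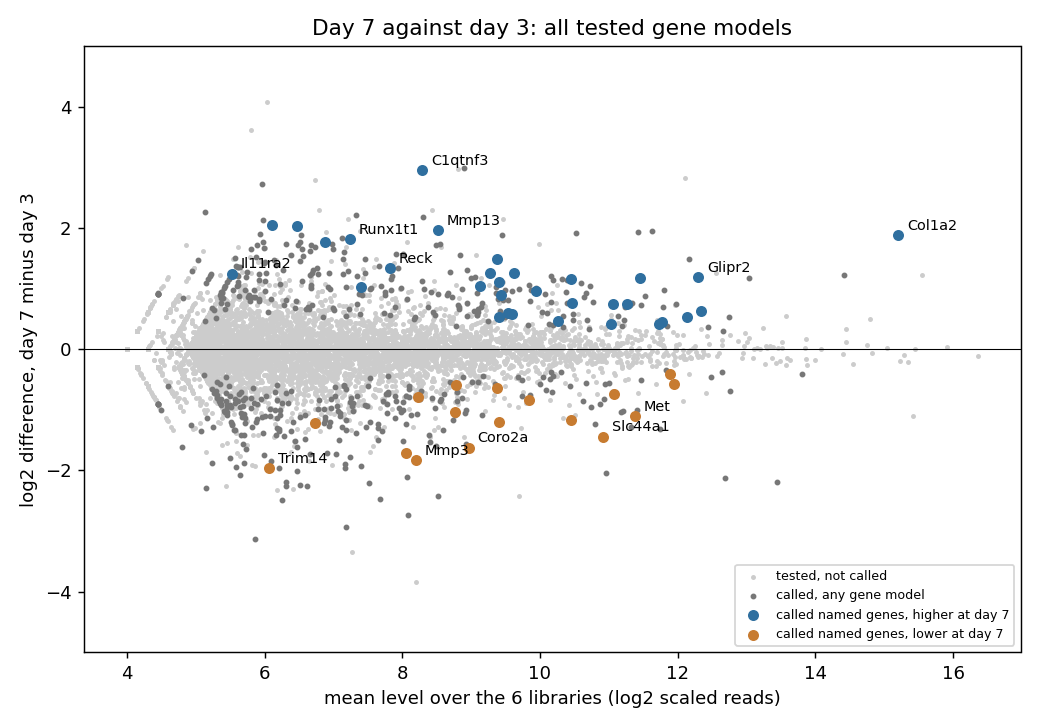
Each point is 1 of the 7768 gene models tested, with its mean level over the 6 libraries (log2 scaled reads) across and its log2 difference, day 7 minus day 3, upward. Large points are the 49 called genes of the named regions, 32 higher in blue and 17 lower in orange, with 12 of them labelled; called genes lie at low and at high levels alike, and Col1a2 has the highest level among them.

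Several genes of the extracellular matrix rose between the days. Of the 3 collagen chains measured, all 3 were called higher, with a median log2 difference of 1.88. Col1a2, which encodes the second chain of type I collagen, the main fibrillar collagen of connective tissue, stood at 18451, 22009 and 18691 scaled reads in the 3 day 3 libraries. At day 7 it stood at 68885, 74544 and 73632 scaled reads. The days lay far apart, with a 3.68-fold rise (log2 difference 1.88, SE 0.12, adjusted p = 4.21e-08). Its mean level was 8088 at day 0 and 196309 ± 17382 (SD, n = 3) at day 14, so that both days lay on the climb of its course. Col28a1, a minor collagen of the von Willebrand domain class, was at the floor, 34.2 and 83.0 scaled reads at day 3 and at 208, 144 and 192 at day 7. Its groups did not overlap and the rise was 4.08-fold (log2 difference 2.03, SE 0.40, adjusted p = 0.00384), with 1 day 3 value limited by the floor. In a fit of the 6 libraries alone the adjusted p of Col28a1 was 0.0861. Col15a1, a collagen of basement membrane zones, was at 79.4, 179 and 117 scaled reads at day 3 and at 208, 241 and 278 at day 7. The Col15a1 rise of 2.03-fold was near the threshold (adjusted p = 0.0477), and the call ended when replicate 1 or 3 of day 3 or any replicate of day 7 was left out (adjusted p 0.0661 to 0.234) and in a fit of the 6 libraries alone (0.202).

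Among 9 matrix glycoproteins and regulators, 3 rose and none fell, with a median log2 difference of 0.53. Reck, a membrane-anchored inhibitor of metalloproteinases, was at 166, 179 and 97.4 scaled reads at day 3 and at 325, 305 and 466 at day 7. These values did not overlap and the rise was 2.52-fold (SE of the log2 difference 0.26, adjusted p = 0.00372; 0.096 in a fit of the 6 libraries alone). Adamts12, a secreted metalloprotease that cuts cartilage matrix protein, was at 962, 1101 and 766 scaled reads at day 3 and at 1901, 2220 and 2128 at day 7, a 2.23-fold rise (adjusted p = 0.000119). Sdc2, a heparan sulfate proteoglycan of the cell surface, was at 3508, 4349 and 3460 scaled reads at day 3 and at 5305, 5389 and 5533 at day 7. Each day 7 library was above each day 3 library for both genes. The 1.44-fold rise of Sdc2 (adjusted p = 0.011) was not called without day 3 replicate 1 or 3 (adjusted p 0.058 and 0.0547). The other 6 members of the list were not called and had log2 differences between -0.59 and 0.66. Svep1, a large adhesion protein of the matrix, had a log2 difference of 0.65 (SE 0.22, adjusted p = 0.0868) and was called under median scaling (0.0436).

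Of the matrix metalloproteinase genes, 9 lie in the named regions and 7 were tested, of which 2 rose and 1 fell. The log2 difference was above 0 for 4 of the 7 and below 0 for 3. Their median of 0.60 is the value of 1 uncalled gene, Mmp8 or Mmp27, and does not describe a shared rise. Mmp27 was at a floor in every day 3 and day 7 library, so its sign reflects only which floor value was set. Mmp3, Mmp12 and Mmp13, from the cluster on chromosome 9, are shown with the start regions listed by RefSeq, because these near neighbours moved in opposite directions. Each stretch runs from 250 bases before to 50 after the listed start on the plus strand of GRCm38.p6: chr9:7445572-7445871 for Mmp3, chr9:7272264-7272563 for Mmp13 and chr9:7347124-7347423 for Mmp12. Capitals mark TGAGTCA or its reverse complement TGACTCA, the usual AP-1 motif, searched on both strands.
Mmp3: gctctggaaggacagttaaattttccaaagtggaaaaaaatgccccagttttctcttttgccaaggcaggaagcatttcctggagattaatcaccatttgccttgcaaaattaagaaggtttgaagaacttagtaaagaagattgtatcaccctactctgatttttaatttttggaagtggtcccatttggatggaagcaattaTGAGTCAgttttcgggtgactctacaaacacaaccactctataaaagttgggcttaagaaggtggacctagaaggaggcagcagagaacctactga
Mmp13: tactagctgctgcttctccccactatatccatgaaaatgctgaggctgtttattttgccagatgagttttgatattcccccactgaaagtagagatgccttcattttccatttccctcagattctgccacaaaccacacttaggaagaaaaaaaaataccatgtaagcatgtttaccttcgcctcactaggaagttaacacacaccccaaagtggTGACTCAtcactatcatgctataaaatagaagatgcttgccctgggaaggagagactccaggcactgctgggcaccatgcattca
Mmp12: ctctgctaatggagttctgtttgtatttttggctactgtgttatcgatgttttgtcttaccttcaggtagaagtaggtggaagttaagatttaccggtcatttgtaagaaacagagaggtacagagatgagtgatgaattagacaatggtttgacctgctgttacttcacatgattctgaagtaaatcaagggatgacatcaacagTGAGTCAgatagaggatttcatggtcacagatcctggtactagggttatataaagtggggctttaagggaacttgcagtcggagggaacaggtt
The motif began 46 bases before the start in Mmp3, 35 in Mmp13 and 44 in Mmp12. The start region of Mmp10, a gene of the same cluster that was not called, held it too, 63 bases before the start, whereas another listed start of Mmp12 had none within the same window. Of all 32851 RefSeq start regions of this length, 5.2% held the motif. The genes and the motif were chosen after the values had been seen, and a match describes letters, not binding.

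Mmp13, which encodes the collagenase that cuts fibrillar collagen, was at 189.7, 187 and 181 scaled reads at day 3 and at 697, 699 and 771 at day 7. The replicates of each day lay close together and the rise was 3.88-fold (log2 difference 1.96, SE 0.37, adjusted p = 0.00246). Mmp12, the macrophage elastase, was at 618, 474 and 448 scaled reads at day 3 and at 1125, 1065 and 1492 at day 7, a 2.39-fold rise (SE of the log2 difference 0.23, adjusted p = 0.00193). Mmp3, stromelysin-1, which cuts proteoglycans and activates other metalloproteinases, went the other way, from 637, 612 and 441 scaled reads at day 3 to 106, 194 and 184 at day 7. Its fall was 3.57-fold (log2 difference -1.84, SE 0.36, adjusted p = 0.0035), and the groups did not overlap for any of these 3 genes. Mmp3 was not on a steady decline: its mean level was 469 at day 0, 945 ± 663 (SD, n = 3) at day 14 and 7956 at day 28, so that day 7 was the lowest of the days of primary culture plotted. Mmp10, stromelysin-2, was not called, with 517, 637 and 454 scaled reads at day 3 against 318, 435 and 411 at day 7 (log2 difference -0.47, SE 0.32, adjusted p = 0.549). Mmp16, a membrane-bound metalloproteinase encoded on chromosome 4, had a log2 difference of 1.07 with an SE of 0.42 (adjusted p = 0.174).

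**Figure D2:**
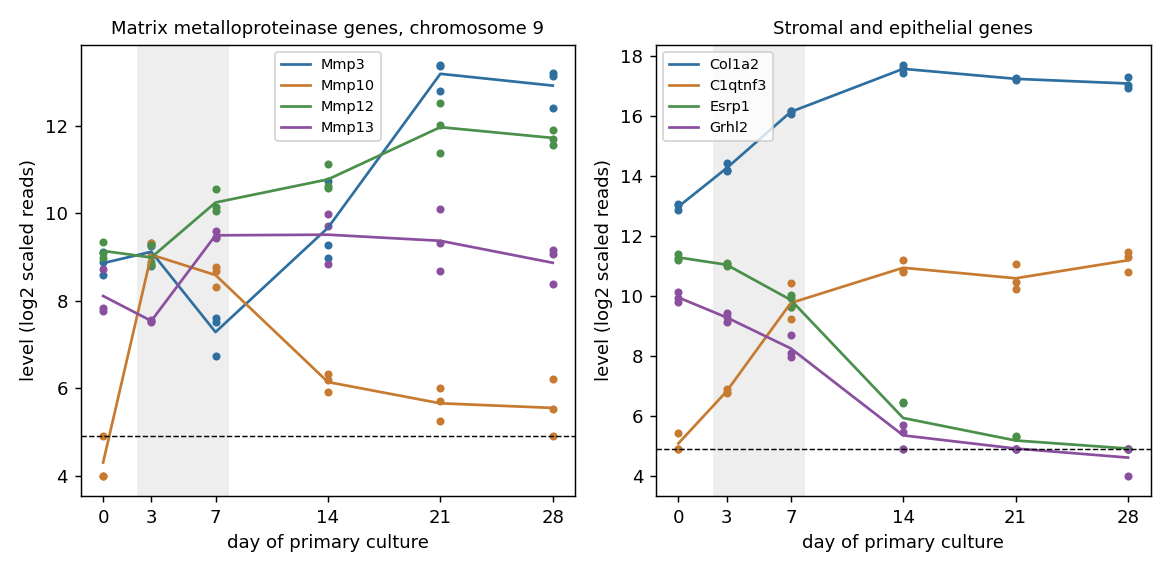
Level (log2 scaled reads) against day of primary culture for 4 metalloproteinase genes (left) and for 4 stromal and epithelial genes (right), with 1 point per library, lines through the group means of the log2 levels and a dashed line at the floor of 30. Within the shaded stretch from day 3 to day 7, Mmp12 and Mmp13 rose while Mmp3 fell, and Col1a2 and C1qtnf3 rose while Esrp1 and Grhl2 fell.

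Of 10 tested genes for adipokines and other secreted signals, 3 rose and none fell, with a median log2 difference of 0.15. C1qtnf3, a secreted protein of the C1q and tumour necrosis factor family made by fat and cartilage, had the largest rise among the 49 genes. It was at 111, 108 and 118 scaled reads at day 3 and at 599, 799 and 1374 at day 7. The day 7 libraries were spread over a wider range, yet all lay far above day 3, and the rise was 7.73-fold (log2 difference 2.95, SE 0.29, adjusted p = 5e-06). Its mean level was 34.2 at day 0 and 1983 at day 14. Gdf6, a ligand of the bone morphogenetic protein family, was at 467, 395 and 356 scaled reads at day 3 and at 1152, 869 and 880.3 at day 7, a 2.38-fold rise (adjusted p = 0.00557). Pdgfd, a growth factor that activates the beta receptor for platelet-derived growth factor, was at 1011, 1265 and 1007 scaled reads at day 3 and at 1981, 1596 and 1954.5 at day 7. Neither gene had overlapping days, and the 1.69-fold rise of Pdgfd (adjusted p = 0.00428) had an adjusted p of 0.054 in a fit of the 6 libraries alone. The other 7 members were not called, with log2 differences from -0.60 to 0.30.

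Among 15 tested receptors, 3 rose and 2 fell, with a median log2 difference of 0.24. Rxfp3, a G protein-coupled receptor for relaxin-3, was at 43.3 scaled reads in 1 day 3 library and at the floor in the other 2, against 88.9, 165 and 187 at day 7. Because of the floored values the 4.13-fold rise (adjusted p = 0.00408) depends on where the floor lies. Ptprz1, a receptor-type phosphatase that binds pleiotrophin, was at 507, 416 and 468 scaled reads at day 3 and at 1114, 864 and 1029 at day 7, a 2.16-fold rise (adjusted p = 0.00171). Il11ra1, the receptor chain for interleukin-11, was at 632, 598 and 593 scaled reads at day 3 and at 810, 986 and 957 at day 7, a 1.51-fold rise (adjusted p = 0.00623). Its near-identical copy Il11ra2 was at the floor in all 3 day 3 libraries and at 97.4, 77.3 and 47.5 scaled reads at day 7, which makes it at least 2.37-fold higher (adjusted p = 0.00527; 0.0909 in a fit of the 6 libraries alone). Reads may have been split between these copies, so both values are uncertain.

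The receptors that fell bind ciliary neurotrophic factor and hepatocyte growth factor. Cntfr, the chain for ciliary neurotrophic factor, was at 448, 420.3 and 589 scaled reads at day 3 and at 161, 141 and 138 at day 7. The groups lay well apart, with a 3.29-fold fall (log2 difference -1.72, SE 0.43, adjusted p = 0.0203). The Cntfr call was lost without day 3 replicate 1 or 3 or day 7 replicate 2 or 3 (adjusted p 0.0529 to 0.082). Met, the tyrosine kinase receptor for hepatocyte growth factor, carried by epithelial cells among others, was at 3801, 4420.0 and 3536 scaled reads at day 3 and at 1716, 1525 and 2269 at day 7. Met fell 2.15-fold (adjusted p = 0.0164), without overlap, and was not called without day 3 replicate 2 or day 7 replicate 1 or 2 (adjusted p 0.0575 to 0.0783). Prlr, the prolactin receptor, was not called at a log2 difference of -0.60 (SE 0.49, adjusted p = 0.643), and its days overlapped.

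Esrp1 and Grhl2, both regulators of epithelial identity, fell. Esrp1, the splicing factor that sets epithelial isoforms, was at 2180.0, 2023 and 2126 scaled reads at day 3 and at 986, 787 and 1048 at day 7. Grhl2, a transcription factor of epithelial barriers, was at 693, 624 and 559 scaled reads at day 3 and at 248, 274 and 414 at day 7. For both genes each day 7 library was below each day 3 library. Esrp1 fell 2.26-fold (log2 difference -1.18, SE 0.28, adjusted p = 0.0138) and Grhl2 fell 2.05-fold (log2 difference -1.03, SE 0.24, adjusted p = 0.0128). The call of Esrp1 was lost without day 3 replicate 1 or day 7 replicate 2 (adjusted p 0.0512 and 0.0696), and that of Grhl2 without day 3 replicate 1 or day 7 replicate 1 or 2 (adjusted p 0.0584 to 0.0669). In a fit of the 6 libraries alone the adjusted p of Grhl2 was 0.0802. At day 14 the means were 67.7 ± 32.7 for Esrp1 and 41.7 ± 10.8 for Grhl2 (SD, n = 3). In bulk RNA fewer cells of a type and less RNA per cell cannot be told apart.

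Marker genes of the cell types a fat digest can hold were summed beside these results. Of 8 epithelial markers tested, 2 fell, both named above, and none rose. Their summed level was 3509 to 3567 scaled reads at day 3 and 1664 to 2164 at day 7, while Cdh17, Aqp3 and Hepacam2 were at the floor in all 6 libraries. Esrp1 and Grhl2 made up most of that sum, 2647 to 2873 scaled reads at day 3 and 1060.4 to 1462 at day 7. The other 6 markers summed to 643 to 882 scaled reads at day 3 and to 498 to 702 at day 7, so that their days overlapped. The log2 difference was above 0 for 3 of the 8 markers and below 0 for 5, with a median of -0.17. For Cdh17, Aqp3 and Hepacam2 the sign reflects only which floor value was set in a library, not a measured change. These counts and the median therefore cannot show a shared direction of the markers. Of 7 stromal markers, 4 rose and none fell, and the summed level went from between 31158 and 36056 to between 86719 and 92535 scaled reads, most of it Col1a2. The part of either shift in the other changes was not tested. Summed adipocyte markers overlapped between the days, at 438.5 to 539.7 and 438.1 to 771.5 scaled reads. None of the 3 was called by limma, and none had an unadjusted p under 0.05. Lep was at the floor throughout, and Aqp7 in every library but day 7 replicate 3, where it lay just above it. The sum therefore rests almost wholly on the remaining marker, Pdk4. The endothelial and mural list shares Cav1 with the stromal list, and Cav1 made up most of its summed level on both days. The sum of its 4 genes ranged from 11862 to 12109 scaled reads at day 3 and from 13105 to 15413 at day 7. None of those 4 genes was called by limma, although 3 had an unadjusted p under 0.05. Of 3 neural and glial markers tested, Ptprz1 rose, and the other 2 were not called, at log2 differences of 0.99 and 1.02. The summed level of the list was 500.4 to 584 scaled reads at day 3 and 1064 to 1248 at day 7, most of it Ptprz1.

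Leukocyte markers showed a mixed picture. Of 9 tested, 2 rose and none fell. The log2 difference was above 0 for 5 of the 9 and below 0 for 4, and the 7 not called ranged from -0.70 to 0.78. The summed level of the list was 2634 to 2869 scaled reads at day 3 and 2864 to 3436 at day 7, with Sit1 and Pax5 at the floor in all 6 libraries. Otulinl, a relative of the deubiquitinase Otulin, was at 66.0, 79.7 and 49.6 scaled reads at day 3 and at 225, 206 and 219 at day 7. The groups were far apart, with a 3.39-fold rise (log2 difference 1.76, SE 0.28, adjusted p = 0.000541). Ripk2, a kinase that relays signals from NOD receptors, was at 609, 695 and 609.9 scaled reads at day 3 and at 814, 912 and 1140.3 at day 7. The 1.49-fold rise of Ripk2 was near the threshold (adjusted p = 0.0455) and was not called without any 1 of the day 3 replicates or without day 7 replicate 2 or 3 (adjusted p 0.0628 to 0.201). The part of leukocytes in the rises of Mmp12, Otulinl and Ripk2 was not tested.

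**Figure D3:**
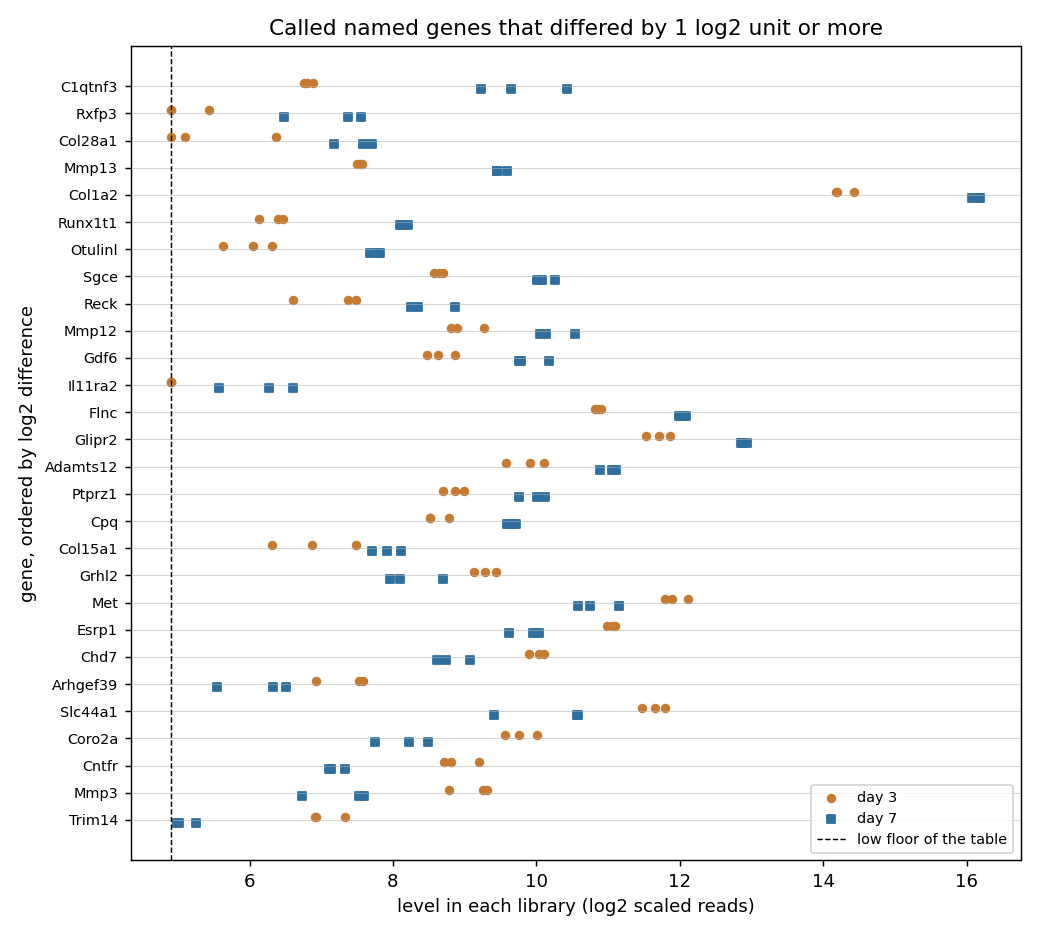
Level in each library (log2 scaled reads) of the 28 called genes whose log2 difference was 1 or more in size, with day 3 as orange circles, day 7 as blue squares and the floor of 30 as a dashed line. Day 3 and day 7 do not overlap for any of the 49 called genes, shown or not. Il11ra2 is at the floor in all 3 day 3 libraries.

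Of 9 interferon and innate immune genes, 1 rose and 2 fell, with a median log2 difference of -0.14. Trim14, an adaptor of antiviral signalling at mitochondria, had the largest fall of the 49 genes. It was at 122, 161 and 120.0 scaled reads at day 3 and at 31.7, 32.4 and 38.2, just above the floor, at day 7. The groups were well separated and the fall was 3.91-fold (log2 difference -1.97, SE 0.27, adjusted p = 0.00016), from a mean of 920 scaled reads at day 0. Birc3, an inhibitor of apoptosis and target of NF-kappa B, was at 765, 918 and 801 scaled reads at day 3 and at 529.8, 518 and 545 at day 7, a 1.55-fold fall (adjusted p = 0.00248). Its mean at day 0 was 3472 scaled reads. The riser was Ripk2, and Irf5, an interferon regulatory factor, was not called (log2 difference -0.70, SE 0.30, adjusted p = 0.219).

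Of 10 genes of the cell cycle and chromosome replication, none rose and 1 fell, with a median log2 difference of -0.28. Arhgef39, a gene linked to proliferation, was at 192, 122 and 185 scaled reads at day 3 and at 80.4, 90.9 and 46.6 at day 7. The days did not overlap and the fall was 2.33-fold (adjusted p = 0.0343). The call of Arhgef39 was lost without day 3 replicate 1 or 3 or day 7 replicate 1 or 3 (adjusted p 0.0552 to 0.163), and in a fit of the 6 libraries alone (0.142). Melk, a kinase of dividing cells, was not called, with 905, 728 and 901 scaled reads at day 3 against 465, 312 and 489 at day 7 (log2 difference -1.02, SE 0.33, adjusted p = 0.0807); under quantile normalization it was called (0.0467). Smc2, a condensin subunit, had a log2 difference of -0.54 (SE 0.26, adjusted p = 0.291), and Ccne2, a cyclin of the start of replication, one of 0.36 (SE 0.18, adjusted p = 0.307). Of 10 DNA repair genes none was called by limma, 4 had an unadjusted p under 0.05, and the median log2 difference was -0.03. Rad54b, a recombination protein, had a log2 difference of -1.22 (SE 0.42, adjusted p = 0.0989) and was called without day 7 replicate 1 (-1.59, adjusted p = 0.0402).

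The lists of mesenchymal factors, early response factors and chromatin regulators held 1 rise and 2 falls. Runx1t1, a corepressor of the ETO family, was at 70.1, 88.8 and 83.9 scaled reads at day 3 and at 273, 297 and 278.5 at day 7. It was the 1 called gene of 8 mesenchymal factors tested, with tight replicates and a 3.51-fold rise (log2 difference 1.81, SE 0.17, adjusted p = 3.97e-06). Klf4, a Kruppel-like factor known from growth arrest and pluripotency, was at 328, 385 and 493 scaled reads at day 3 and at 261, 174.5 and 263 at day 7. The 1.73-fold fall of Klf4 (adjusted p = 0.0121) came after a day 0 mean of 13497 scaled reads, and the call ended without day 3 replicate 3 or day 7 replicate 2 (adjusted p 0.0729 and 0.0752) or in a fit of the 6 libraries alone (0.176). It was the 1 called gene among 6 early response and stress factors, whose median log2 difference was -0.45. Chd7, a chromatin remodeller, was at 1052, 1102 and 954 scaled reads at day 3 and at 429, 539 and 391 at day 7. Its days lay apart, with a 2.30-fold fall (log2 difference -1.20, SE 0.30, adjusted p = 0.0189), and the call was lost without day 3 replicate 1 or 2 or day 7 replicate 1 or 3 (adjusted p 0.0602 to 0.0761). The other 7 chromatin regulators tested were not called, at log2 differences from -0.43 to 0.13.

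Of 16 actin, adhesion and contractile genes, 1 rose and 2 fell, with a median log2 difference of 0.01. Flnc, the filamin of muscle that cross-links actin, was at 1810.0, 1852 and 1914.5 scaled reads at day 3 and at 4237, 4055 and 4347 at day 7. Its replicates were tight and the rise was 2.27-fold (log2 difference 1.18, SE 0.08, adjusted p = 1.54e-07). Coro2a, an actin-binding coronin also found with nuclear corepressors, was at 1033, 754 and 869 scaled reads at day 3 and at 214, 360.4 and 298 at day 7, a 3.09-fold fall (adjusted p = 0.00119) from a mean of 9834.5 at day 0. Basp1, a membrane-bound protein that regulates cortical actin, was at 2479, 2983 and 2889.8 scaled reads at day 3 and at 1715, 1948 and 1372 at day 7. Coro2a and Basp1 had no overlap between days, but the 1.67-fold fall of Basp1 (adjusted p = 0.037) was not called without any 1 of the day 3 replicates or day 7 replicate 1 or 3 (adjusted p 0.0562 to 0.16). Cdh6, a cadherin, just missed the threshold (log2 difference 1.06, SE 0.31, adjusted p = 0.0504) and was called without day 3 replicate 2 (1.32, adjusted p = 0.0264). Of 7 heart and muscle genes in these regions, 2 rose, Flnc and Asph, with a median log2 difference of 0.60. Asph, whose transcripts encode an aspartyl hydroxylase and the muscle protein junctin, was at 2828, 3450 and 2725 scaled reads at day 3 and at 4197, 3942 and 4053 at day 7, a 1.36-fold rise (adjusted p = 0.0138). Without day 3 replicate 1 or 3 or day 7 replicate 1 Asph was not called (adjusted p 0.055 to 0.0744), nor in a fit of the 6 libraries alone (0.0909).

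The caveolin genes, neighbours on chromosome 6 whose products line caveolae, gave opposite signs. Cav2 was at 4938, 4731 and 4713 scaled reads at day 3 and at 3523, 2754 and 3451.5 at day 7, a fall of 1.49-fold without overlap (adjusted p = 0.00774; 0.0569 in a fit of the 6 libraries alone). Cav1 was at 8549.9, 8723 and 8452 scaled reads at day 3 and at 11221, 9960.5 and 11734 at day 7. The Cav1 libraries did not overlap either, but its log2 difference of 0.35 (SE 0.16) was not called (adjusted p = 0.268). Whether the changes of the pair differed from each other was not tested.

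In metabolism 1 of 13 lipid genes and 1 of 11 genes of translation rose and none fell. Both counts lie near the share called in either direction, 7.11% of all gene models tested and 11.8% of the named genes. Abca1, the exporter of cellular cholesterol, was at 563, 568 and 406 scaled reads at day 3 and at 883, 980.0 and 950.2 at day 7, a 1.85-fold rise (adjusted p = 0.00273). Asns, asparagine synthetase, a target of the amino acid response, was at 4025, 4470.1 and 3975 scaled reads at day 3 and at 6172, 6664 and 6477 at day 7. Each day 7 library was above each day 3 library for both, and the 1.55-fold rise of Asns had a small error (log2 difference 0.63, SE 0.07, adjusted p = 1.9e-05). Tars, threonyl-tRNA synthetase, was near the threshold at a log2 difference of 0.31 (SE 0.09, adjusted p = 0.0586). Among nuclear respiratory chain genes none of 10 was called by limma and 1 had an unadjusted p under 0.05. Their log2 differences ranged widely, from -1.92 to 0.24, with a median of 0.07. None of 12 genes for folding and the endoplasmic reticulum was called by limma, with 3 at an unadjusted p under 0.05. Calu, a calcium-binding protein of the secretory pathway, had non-overlapping days and a log2 difference of 0.50 (SE 0.25, adjusted p = 0.307), and was called in a fit of the 6 libraries alone (0.00429).

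The mitochondrial genome encodes 13 proteins, all subunits of the respiratory chain and of ATP synthase, and none of these genes was called by limma. Their log2 differences lay between -0.16 and 0.03, with a median of -0.01, and 0 had an unadjusted p under 0.05. For example, mt-Co1, subunit 1 of cytochrome oxidase, was at 74829, 98249.6 and 91391 scaled reads at day 3 and at 74947, 87949.9 and 79556 at day 7, with overlapping days (log2 difference -0.12, SE 0.18, adjusted p = 0.873). Under quantile normalization 1 of the 13 was called lower.

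**Figure D4:**
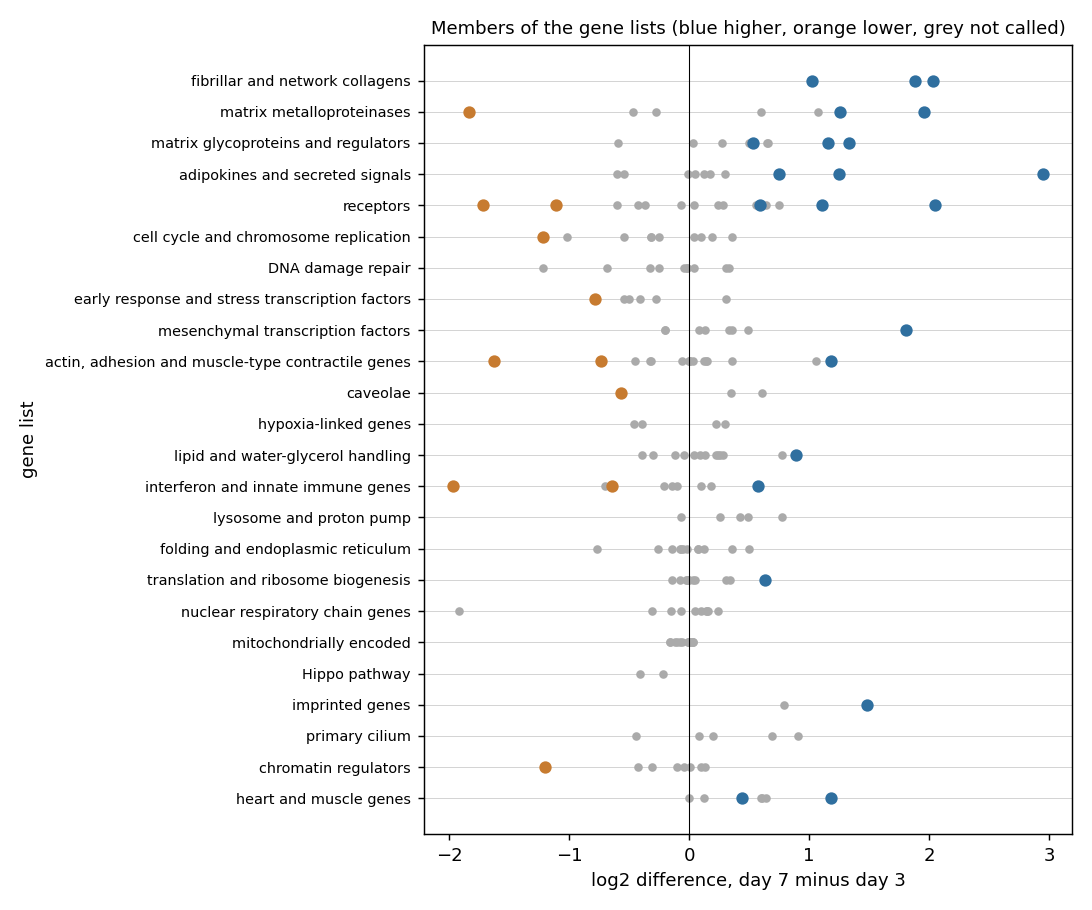
Log2 difference, day 7 minus day 3, of each tested member of the gene lists, with 1 row per list, large blue points for genes called higher, large orange points for genes called lower and small grey points for genes not called. All 3 collagens are called higher, the metalloproteinases hold calls on both sides, and the 13 mitochondrially encoded genes sit close to 0.

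Among the remaining called genes, Sgce, the imprinted gene of epsilon-sarcoglycan, was at 399, 413 and 382 scaled reads at day 3 and at 1230.0, 1084 and 1031 at day 7, a 2.80-fold rise (log2 difference 1.48, SE 0.14, adjusted p = 2.3e-06). Glipr2, a Golgi-associated protein, was at 3353, 3721 and 2967 scaled reads at day 3 and at 7477, 7367.5 and 7849.5 at day 7, a 2.27-fold rise (SE of the log2 difference 0.09, adjusted p = 3.19e-07). Both genes had tight replicates and no overlap. Slc44a1, a choline transporter, was at 2830.4, 3208 and 3534 scaled reads at day 3 and at 1531, 1522 and 682 at day 7. Day 7 replicate 3 was the lowest by far, and the 2.72-fold fall (adjusted p = 0.0312) was not called without it (log2 difference -1.06, adjusted p = 0.159), without any 1 of the day 3 replicates (0.0643 to 0.101) or in a fit of the 6 libraries alone (0.119). Nipal2, a member of a family of magnesium transporters, fell 1.79-fold (adjusted p = 0.0345), and Pigo, an enzyme of GPI anchor synthesis, fell 1.51-fold (adjusted p = 0.0455). The Nipal2 call was lost on leaving out any 1 of the 6 libraries (adjusted p 0.0544 to 0.126), and the Pigo call on leaving out any 1 but day 7 replicate 2 (adjusted p 0.0801 to 0.19).

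A further 9 called genes stood outside the rule for naming and were singled out after their values were seen. Gng11 and Gng10, which encode gamma subunits of G proteins, rose 1.93-fold (adjusted p = 0.000369) and 1.67-fold (adjusted p = 6.83e-06). Cpq, a carboxypeptidase, rose 2.06-fold (adjusted p = 1.26e-05) and Dap, a death-associated protein linked to autophagy, rose 1.68-fold (adjusted p = 0.000112). These 4 were called in all 14 alternative settings. The other 5, Tstd3, Impdh1, Rusc2, Fam221b and Ptbp3, differed by 0.41 to 0.52 log2 units in size. Each of the 5 lost its call without at least 5 of the 6 libraries in turn, with adjusted p up to 0.178 for Tstd3, 0.185 for Impdh1, 0.208 for Rusc2, 0.121 for Fam221b and 0.11 for Ptbp3. Of the 49 called genes, 17 overlap an annotated gene of any kind on the opposite strand and 5 overlap one on the same strand, namely Col1a2, Gng10, Il11ra1, Reck and Ripk2. The library kit does not mark strand, so reads that fall within a shared stretch may be assigned to either gene. The opposite-strand partner codes for protein in 8 cases, Asph, Fam221b, Il11ra1, Mmp12, Pdgfd, Rusc2, Trim14 and Tstd3. For 4 of these, Asph, Mmp12, Pdgfd and Rusc2, the protein-coding partner was at the floor in all 6 libraries.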

How the data were processed

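RNA was sequenced from the 21 libraries of the course after amplification of 15 ng of total RNA, per the labels' protocols. The authors deposited 1 table of log2 values, centred so that each gene model sums to 0 over the libraries. Per the labels the build was GRCm39; not given in the sources used here are aligner, counter and scaling method. The floors of the table, read as 16 and 30 scaled reads, gave each library's factor and each gene model's level, for 30296 gene models; 493 were constant and 172 unresolved. Of 14586 values above the floor and under 200 reads, 100.0% were whole within 0.1 read. Differences do not depend on this scale. The full depth is unknown, so no counting interval was computed, and a count test was left out, since the table lacks reads below its floor.

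The design of the test foresaw log2 values or counts, and the log2 levels, without a pseudocount, were fitted by limma-trend (limma 3.58.1, R 4.3.3). All 21 libraries entered 1 fit with 7 groups. A gene model above the floor in at least 3 libraries was tested, which gave 7768, and p-values were adjusted by Benjamini-Hochberg over all of them, with calls under 0.05. The recovery and the fit were tested on simulated data; there the fit found most changes put in, but its share of false calls was above the threshold used, and many of these were in gene models with a library at the floor. Names and regions came from GENCODE M21 on GRCm38 and start sequences from RefSeq; no coordinates were converted. Of the called genes in the regions, the 15 largest rises and 15 largest falls were named, with members of the gene lists. The regions, lists and tests were chosen with earlier results of these data known. Tables and figures were made with pandas 2.3.3, matplotlib 3.10.9 and numpy 2.4.6 under Python 3.11.15. The 14 alternatives changed the scaling, the filter, the floor, the libraries fitted, the replicate block or the trend, or left out 1 library.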

Additional observations from a re-analysis of the deposited data

How the results depend on the processing

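Over 14 alternative settings 24 of the 49 called genes were called in all of them (20 higher, 4 lower). The other 25 lost the call in at least 1, 20 of these on leaving out a single library. None reversed, but most settings could not reverse a called gene. Leaving out a library cannot do so when the days do not overlap, and several other settings leave the difference unchanged. Leaving out 1 library gave 401 to 466 called gene models against 552, 32 to 41 called genes in the named regions against 49, and a median log2 difference of -0.128 to 0.036 for the mitochondrially encoded genes. The lowest of the gene counts, 32, came without day 3 replicate 1. The fit of the 6 libraries alone lost 18 of the 49 calls, limma without trend 7, the filter on 1 library 5, and quantile normalization and median scaling 2 each. No pairing by replicate number was seen in the levels: deviations of same-numbered libraries correlated at -0.033, 0.071 and -0.023, and other pairs at -0.043 to 0.073. With so few libraries per day, these values cannot show whether same-numbered libraries shared an animal or culture. With the replicate block, 525 gene models were called, 45 of them in the named regions, and 5 of the 49 calls were lost. The causes were not tested. Values under the floor, 24.6 to 33.3 reads, limit what can be seen of low genes.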
